A study of Rattus norvegicus with 18 samples.

Results

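The genes described here carry calcium and membrane current in the heart: the calcium store and its regulators, the routes of calcium across the surface membrane, potassium channels, and a small group of pacemaker channel, pump and gap junction genes. They were taken by name from a list of 28 genes, of which 27 have a row among the 28909 rows of the table. KCND2 is not analysed here. The 27 genes fall into 11 of the calcium store, 6 of calcium entry and exchange, 6 potassium channel genes and 4 pacemaker, pump and junction genes. The list was drawn up by function, with earlier results of these data known.

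The cells were wild-type ventricular cardiomyocytes of 1-day-old SD (Sprague-Dawley) rats, a primary culture plated on collagen. In the treated group, 3 libraries, cells received 25 µM blebbistatin for 0.5 h. In the control group, also 3 libraries, cells received the solvent DMSO for 0.5 h. Blebbistatin inhibits the motor activity of myosin II, which stops contraction, while excitation and the calcium transient can go on. Both groups were preplated to remove cells that attach early and were kept in low-serum medium. The dose of 25 µM is that of the treatment protocol, and the series' design text also gives a far lower one. A further 12 chromatin and input samples are not analysed here. The question put to these libraries is whether calcium and channel transcripts differ once myosin II is inhibited. Nothing in the labels ties the libraries to separate preparations of cells. The p-values therefore cover the library-to-library spread alone, which may be technical.

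In a heart muscle cell, depolarisation opens L-type calcium channels, and the calcium that enters opens ryanodine receptors in the sarcoplasmic reticulum, which release much more. The muscle relaxes when the pump SERCA returns calcium to the store and the sodium-calcium exchanger moves the rest out of the cell. Potassium channels end the action potential and hold the resting potential, while HCN channels carry the pacemaker current.

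None of the 27 genes passed the test for a difference after 0.5 h of blebbistatin. Each gene was tested in a limma fit over all 15204 genes with enough signal, and called at a Benjamini-Hochberg adjusted p under 0.05. All 27 genes passed the filter on low values. The lowest adjusted p among them was 0.991, and 0 of 27 had an unadjusted p under 0.05 in limma. Over all genes tested, 0.0197% were called at the adjusted threshold and 1.51% had an unadjusted p under 0.05. In log2 fold change, blebbistatin over DMSO, the median was -0.04 for the 27 genes and 0.0025 for all genes tested, with 13 of the 27 positive and 14 negative.

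The 3 treated libraries lay above all 3 controls for PLN and KCNJ11, and for no gene did they all lie below. These are 2 of 27 genes. Over all genes tested, the groups did not overlap for 6.11%, with 3.17% higher and 2.94% lower after blebbistatin. The other 25 genes had overlapping groups.

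**Figure D1:**
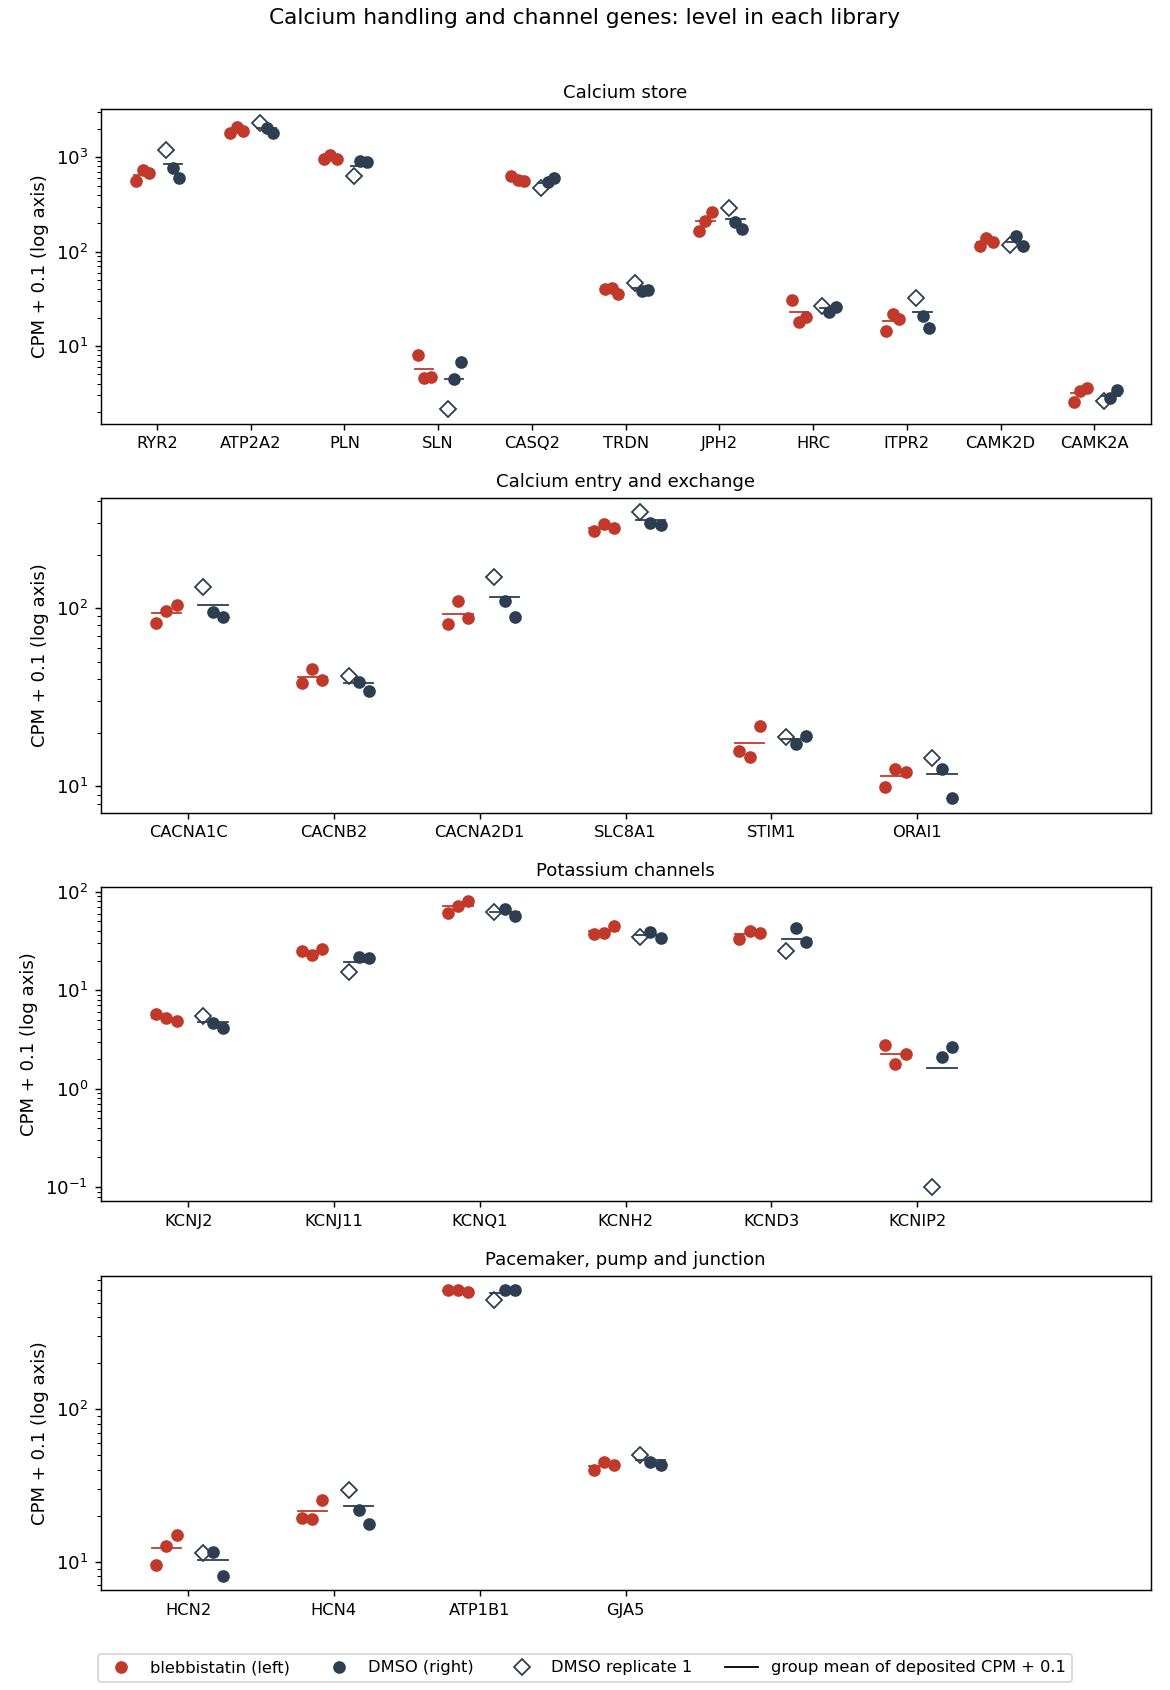
Level of each of the 27 genes in each library, as deposited CPM plus 0.1 on a log axis, in 4 panels by role. Points are libraries, with blebbistatin on the left and DMSO on the right of each gene, bars are group means and open diamonds mark DMSO replicate 1, where KCNIP2 was listed at 0. Only PLN and KCNJ11 have all treated points above all control points.

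One control library, DMSO replicate 1, differed most from the rest, and fold changes are also given without it. Without it 0 of the 27 genes were called by limma and 0 had an unadjusted p under 0.05, against 0.0395% and 1.58% of all genes tested. It held the highest scaled level of the 6 libraries for 12 of the 27 genes and the lowest for 7, against 33.8% and 34.6% of all genes tested. Levels are in CPM, which puts every library on one total but makes no correction for gene length, so levels are compared between libraries and not between genes. The summed level of 29 ribosomal protein genes was 14070 to 18641 CPM in blebbistatin libraries and 10114 to 18463 CPM in DMSO libraries, lowest in DMSO replicate 1. Of 15 cardiomyocyte markers 14 have a row, all above 0, and their sum was 29304 to 30728 CPM in blebbistatin libraries and 29546 to 33888 CPM in DMSO libraries. Its members moved apart in DMSO replicate 1, where the sum was highest: 5 of the 14 were highest there, with MYH7 at 19644 CPM, and 7 were lowest. Fibroblast markers, 10 of 10 above 0, summed to 33578 to 38039 CPM in blebbistatin libraries and 33521 to 38981 CPM in DMSO libraries. They also moved apart in DMSO replicate 1: 2 of the 10 were highest there, with COL1A1 at 24452 CPM. In the same library 5 were lowest, with TCF21 at 21.6 CPM. Red blood cell markers summed to 60.1 to 68.8 CPM in blebbistatin libraries and to 185, 69.4 and 69.2 CPM in the DMSO libraries, highest in replicate 1. Macrophage and leukocyte markers summed to 172 to 189 CPM in blebbistatin libraries and to 100.2, 169 and 188 CPM in the DMSO libraries, lowest in replicate 1. Of these 10 markers 8 were lowest in DMSO replicate 1, with LYZ2 at 14.5 CPM. CSF1R, at 25.0 CPM there, and MRC1, at 26.8 CPM, lay within the range of the other libraries. The part of these cells in the values of DMSO replicate 1 was not tested. Since these are bulk libraries, fewer cells of a type and less RNA per cell cannot be told apart.

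Among the calcium store genes, PLN encodes phospholamban, a small membrane protein that restrains SERCA until it is phosphorylated. It was at 966, 1056 and 951 CPM in the blebbistatin libraries, against 625, 914 and 896 CPM in the DMSO libraries. All treated libraries were higher than all controls, with DMSO replicate 1 well below the other two. After scaling it averaged 978 ± 70.8 CPM in blebbistatin libraries and 818 ± 126 CPM in DMSO libraries (SD, n = 3 each). The log2 fold change was 0.27 ± 0.16 (SE) and did not pass (limma adjusted p = 0.991), and its 95% interval, not adjusted for the number of genes, ran from 0.93-fold to 1.55-fold. Without DMSO replicate 1 the log2 fold change was 0.13.

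PLN overlaps another RefSeq gene, CEP85L, and how the authors' counting treats overlapping genes is not given in the sources used here, so its values are uncertain to that extent. CEP85L itself was at 7.94, 7.94 and 8.38 CPM in the blebbistatin libraries and 11.6, 8.38 and 7.76 CPM in the DMSO libraries. It was highest in the library in which PLN was lowest.

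ATP2A2, the gene of the pump SERCA2 that PLN restrains, was at 1791, 2106 and 1874 CPM in the blebbistatin libraries and 2282, 2011 and 1794 CPM in the DMSO libraries. The groups overlapped, and DMSO replicate 1 was again the outermost value, here the highest. The log2 fold change was -0.11 ± 0.17 (SE), with a 95% interval of 0.71-fold to 1.21-fold, and without DMSO replicate 1 it was 0.019.

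RYR2 encodes the ryanodine receptor, the channel through which the store releases calcium. It was at 556, 728 and 675 CPM in the blebbistatin libraries, against 1201, 758 and 597 CPM in the DMSO libraries. The groups overlapped, with DMSO replicate 1 the highest library and blebbistatin replicate 1 the lowest. Its log2 fold change was -0.37 ± 0.29 (SE, limma adjusted p = 0.991), with a 95% interval of 0.48-fold to 1.23-fold. Without DMSO replicate 1 the log2 fold change was -0.049, and without DMSO replicate 3 it was -0.62 (limma adjusted p = 0.595). At the latter setting the unadjusted limma p of RYR2 was under 0.05 and its groups did not overlap. Nor did those of 22.5% of all genes tested at that setting. Over all alternatives for RYR2 the adjusted p ran from 0.595 to 0.9999.

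SLN encodes sarcolipin, another small inhibitor of SERCA that in the adult heart is mostly an atrial protein. It was at 7.87, 4.44 and 4.57 CPM in the blebbistatin libraries and 2.03, 4.43 and 6.67 CPM in the DMSO libraries. The groups overlapped, with blebbistatin replicate 1 and DMSO replicate 3 highest and DMSO replicate 1 lowest. Its log2 fold change was 0.42 ± 0.41 (SE) and 0.0028 without DMSO replicate 1. The summed level of 7 atrial markers was 2997 to 5602 CPM in blebbistatin libraries and 677 to 5429 CPM in DMSO libraries, and most of it in each library was NPPA. NPPA was at 5326, 2785 and 3908 CPM in the blebbistatin libraries and 495, 2859 and 5168 CPM in the DMSO libraries, with the same outer libraries as SLN. Other atrial markers did not all follow: BMP10 was highest in DMSO replicate 1 and lowest in blebbistatin replicate 1, and MYL7 was lowest in blebbistatin replicate 2. The part of these markers in the SLN values was not tested.

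The luminal and junctional genes of the store all had overlapping groups. CASQ2, the gene of the calcium buffer calsequestrin, was at 623, 574 and 561 CPM in the blebbistatin libraries and 473, 542 and 600 CPM in the DMSO libraries, with a log2 fold change of 0.088 ± 0.12 (SE). TRDN, whose product triadin ties calsequestrin to the ryanodine receptor, was at 40.2, 40.6 and 35.0 CPM in the blebbistatin libraries and 46.8, 38.0 and 39.1 CPM in the DMSO libraries (-0.13 ± 0.16). CASQ2 was lowest and TRDN highest in DMSO replicate 1. JPH2, the gene of junctophilin 2 that holds the store close to the surface membrane, was at 163, 211 and 262 CPM in the blebbistatin libraries and 288, 207 and 173 CPM in the DMSO libraries, with a log2 fold change of -0.11 ± 0.26 (SE). The calcium-binding protein gene HRC was at 30.5, 17.8 and 20.2 CPM in the blebbistatin libraries and 26.5, 23.1 and 26.0 CPM in the DMSO libraries (-0.22 ± 0.21). The treated libraries of HRC alone spanned more than its controls did. Without blebbistatin replicate 1, HRC had a log2 fold change of -0.44 and an unadjusted limma p under 0.05, but an adjusted p of 0.9999.

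ITPR2 encodes a receptor for inositol trisphosphate, a slower release channel of the store. It was at 14.2, 21.5 and 19.2 CPM in the blebbistatin libraries and 31.9, 20.9 and 15.6 CPM in the DMSO libraries, with a log2 fold change of -0.31 ± 0.31 (SE) and 0.0051 without DMSO replicate 1. As for RYR2, the highest value was in DMSO replicate 1 and the lowest in blebbistatin replicate 1. The kinase gene CAMK2D, the main cardiac calmodulin kinase II, had a log2 fold change of -0.04 ± 0.15 (SE) between 114 and 145 CPM over the 6 libraries. CAMK2A, the form best known from neurons, was between 2.47 and 3.50 CPM, with a log2 fold change of 0.055 ± 0.23 (SE). The 8 neuron markers summed to 7.18 to 8.63 CPM in blebbistatin libraries and 7.38 to 8.89 CPM in DMSO libraries. Of these, 3 were above 0 in all 6 libraries, and their part in the CAMK2A values was not tested. Over the 11 store genes 4 fold changes were positive and 7 negative, and their median was -0.11 on the log2 scale, or 0.0051 without DMSO replicate 1.

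The sequences just upstream of PLN and RYR2 are shown because these 2 store genes departed in opposite directions in DMSO replicate 1. They are the 250 bases before the RefSeq transcription start in build GRCr8, both on the plus strand, read 5′ to 3′, at chr20:33172244-33172493 for PLN and chr17:63081277-63081526 for RYR2. Capitals mark the one motif match in each, an E-box (CANNTG), the sequence bound by basic helix-loop-helix factors.
PLN: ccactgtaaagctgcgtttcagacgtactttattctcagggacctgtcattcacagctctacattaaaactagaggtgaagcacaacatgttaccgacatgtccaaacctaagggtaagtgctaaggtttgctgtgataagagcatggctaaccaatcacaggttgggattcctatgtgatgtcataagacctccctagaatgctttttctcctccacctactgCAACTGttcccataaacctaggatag
RYR2: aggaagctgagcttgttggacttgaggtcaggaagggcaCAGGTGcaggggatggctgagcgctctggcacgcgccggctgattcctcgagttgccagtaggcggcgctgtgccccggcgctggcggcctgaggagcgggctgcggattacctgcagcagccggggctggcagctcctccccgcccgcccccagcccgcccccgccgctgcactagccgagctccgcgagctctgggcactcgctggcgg
The window is 44% G and C at PLN and 72% at RYR2. The motifs searched, on both strands, were TATAAA, the AP-1 site TGANTCA, the E-box CANNTG, the GATA site AGATAA, the NFAT core GGAAA, the MEF2 box and the CArG box of SRF. The motifs can overlap one another in a sequence. An upstream sequence was found for 21 of the 27 genes, and 11 of these held an E-box, against 65.5% of 33469 RefSeq windows of the same length. The NFAT core was found in 7 of 21, against 56.9% of all windows, and it was not among the letters of either window shown. TGANTCA, the MEF2 box and the CArG box matched 0 of 21, against 6.34%, 3.41% and 1.5% of all windows. TATAAA matched GJA5 alone and AGATAA matched CACNA2D1 alone, against 12.9% and 10.3% of all windows. These are matches of letters and say nothing about binding.

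**Figure D2:**
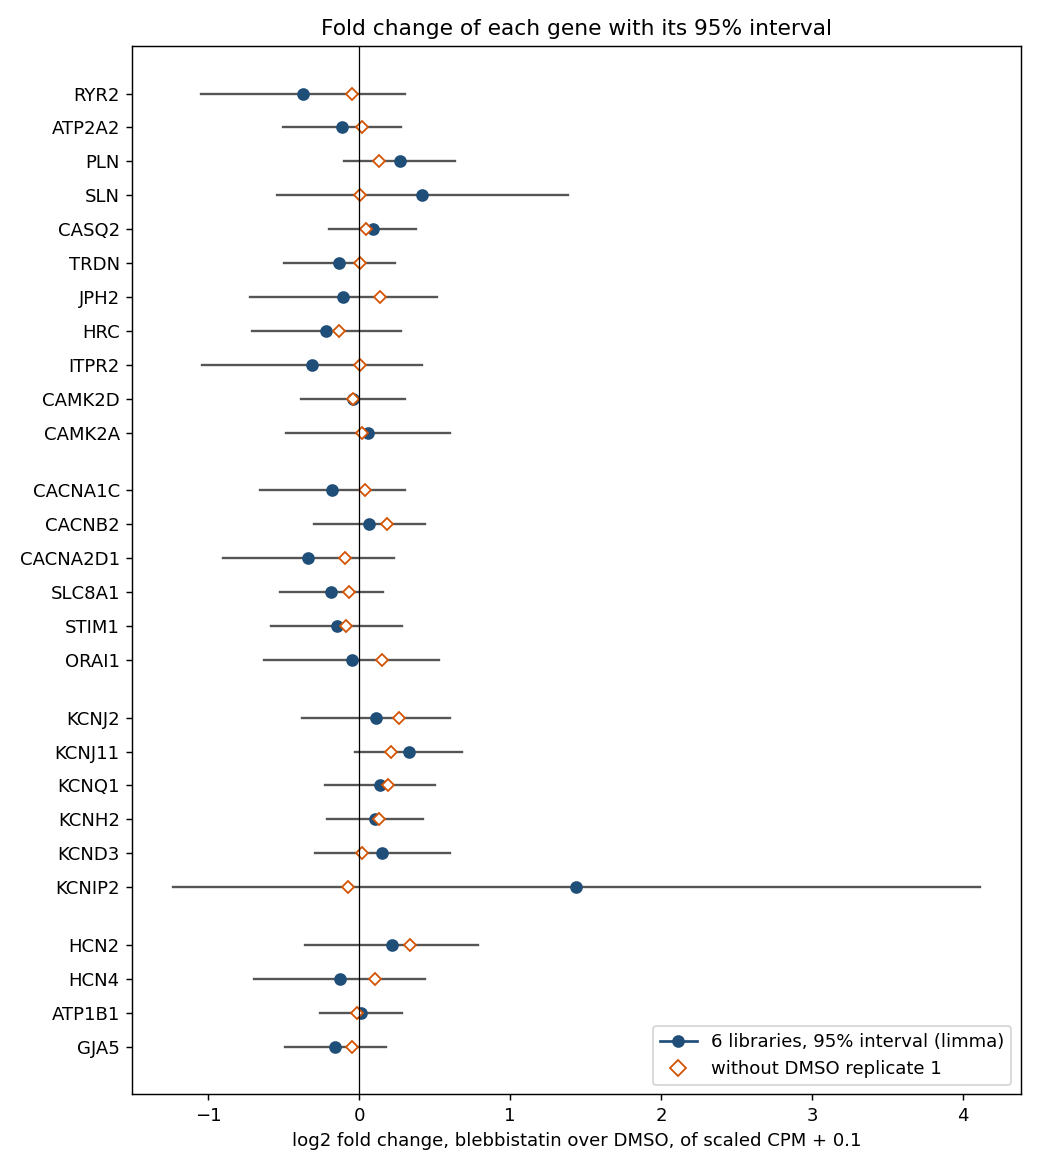
Log2 fold change of each gene, blebbistatin over DMSO, of scaled CPM plus 0.1, ordered by role from the calcium store at the top to pacemaker, pump and junction genes at the bottom. Filled circles and lines give the limma estimate and its unadjusted 95% interval from 6 libraries, and open diamonds the estimate without DMSO replicate 1. All 27 intervals include 0, and the KCNIP2 interval is the widest drawn.

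Of the calcium entry and exchange genes, 1 had a positive and 5 a negative fold change, and the median on the log2 scale was -0.16, or -0.016 without DMSO replicate 1. CACNA2D1 encodes the auxiliary α2δ subunit that helps carry the L-type channel to the surface. It was at 81.5, 109 and 88.3 CPM in the blebbistatin libraries, against 149.8, 110.1 and 88.6 CPM in the DMSO libraries. The log2 fold change was -0.34 ± 0.24 (SE), the lowest p of the 6 genes, and did not pass (limma adjusted p = 0.991). Its groups overlapped, and it was -0.093 without DMSO replicate 1 and -0.54 without DMSO replicate 3 (limma adjusted p = 0.595). At the latter setting its unadjusted limma p was under 0.05, and its groups still overlapped.

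CACNA1C, the gene of the pore of the L-type channel, was at 83.0, 96.1 and 103 CPM in the blebbistatin libraries and 131, 94.6 and 89.0 CPM in the DMSO libraries. Its log2 fold change was -0.18 ± 0.21 (SE), and DMSO replicate 1 alone lay above the treated range. CACNA1C overlaps DCP1B in the RefSeq annotation, a gene at 5.47 to 8.40 CPM over the 6 libraries. CACNB2, the β subunit that supports the same pore, was at 38.0, 45.6 and 39.5 CPM in the blebbistatin libraries and 41.8, 38.5 and 34.0 CPM in the DMSO libraries (0.067 ± 0.16). The estimate was below 0 for the pore and above 0 for the β subunit, and both had overlapping groups.

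SLC8A1 encodes the sodium-calcium exchanger that moves calcium out of the cell. It was at 271, 296 and 280.1 CPM in the blebbistatin libraries, against 346, 301 and 292 CPM in the DMSO libraries. Only blebbistatin replicate 2 reached into the control range. The log2 fold change was -0.19 ± 0.15 (SE, limma adjusted p = 0.991), with a 95% interval of 0.69-fold to 1.11-fold, and -0.067 without DMSO replicate 1. STIM1, the sensor of store calcium, and ORAI1, the surface channel it opens, were between 14.6 and 21.8 CPM and between 8.49 and 14.3 CPM over the 6 libraries. Their log2 fold changes were -0.15 ± 0.19 and -0.051 ± 0.25 (SE), and both had overlapping groups. That of STIM1 was -0.32 without blebbistatin replicate 3 and -0.046 without blebbistatin replicate 2.

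The fold change was above 0 for 6 of 6 potassium channel genes, with 0.15 as the median on the log2 scale, and none passed the test. Without DMSO replicate 1 it was above 0 for 5 and below for 1. KCNJ11 encodes Kir6.2, the pore of the potassium channel that closes when ATP is high. It was at 25.2, 22.9 and 25.9 CPM in the blebbistatin libraries, against 15.1, 21.8 and 20.9 CPM in the DMSO libraries. The groups did not overlap, and DMSO replicate 1 was the lowest. After scaling it averaged 24.3 ± 1.29 CPM in blebbistatin libraries and 19.5 ± 2.76 CPM in DMSO libraries (SD, n = 3 each). The log2 fold change of 0.33 ± 0.15 (SE) had the lowest p of the 27 genes, rank 336 of the 15204 genes tested, with an unadjusted limma p of 0.0653, an adjusted p of 0.991 and a 95% interval of 0.98-fold to 1.61-fold. Without DMSO replicate 1 it was 0.21.

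The sulfonylurea receptors that join Kir6.2 in the channel had smaller estimates. ABCC8, the gene of the receptor SUR1, was at 19.0, 20.9 and 19.0 CPM in the blebbistatin libraries and 15.2, 18.3 and 17.3 CPM in the DMSO libraries, with a log2 fold change of 0.17 ± 0.13 (SE). Its groups did not overlap either. ABCC9, the gene of the receptor SUR2, was at 58.8, 78.1 and 71.1 CPM in the blebbistatin libraries and 64.0, 65.7 and 56.6 CPM in the DMSO libraries (0.11 ± 0.16), with overlapping groups.

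KCNJ2, the gene of the inward rectifier Kir2.1 that holds the resting potential, was at 5.63, 5.12 and 4.80 CPM in the blebbistatin libraries and 5.42, 4.58 and 4.05 CPM in the DMSO libraries (log2 fold change 0.11 ± 0.21, SE). Without DMSO replicate 1 the groups of KCNJ2 no longer overlapped, as for PLN and KCNJ11. At that setting 3 of 27 genes did not overlap, all higher, against 12.2% of all genes tested, with 6.06% higher and 6.10% lower. KCNQ1 and KCNH2, whose channels carry the slow and the rapid delayed rectifier currents, had log2 fold changes of 0.14 ± 0.16 and 0.10 ± 0.14 (SE). KCNQ1 was at 60.5, 71.6 and 80.5 CPM in the blebbistatin libraries and 63.0, 67.0 and 56.8 CPM in the DMSO libraries. KCNH2 was at 36.8, 37.7 and 45.0 CPM in the blebbistatin libraries and 35.0, 38.6 and 34.2 CPM in the DMSO libraries. In both genes the highest value was in blebbistatin replicate 3 and the rest overlapped. Without that library the log2 fold changes of KCNQ1 and KCNH2 were 0.043 and 0.012.

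The transient outward current is carried by Kv4 channels with the subunit KChIP2. KCND3, the gene of Kv4.3, was at 33.4, 39.8 and 37.8 CPM in the blebbistatin libraries and 25.1, 42.9 and 31.1 CPM in the DMSO libraries, with a log2 fold change of 0.15 ± 0.19 (SE), or 0.017 without DMSO replicate 1. KCNIP2, the gene of KChIP2, was at 2.70, 1.69 and 2.12 CPM in the blebbistatin libraries and 2.01 and 2.53 CPM in DMSO replicates 2 and 3, and was listed at 0 in DMSO replicate 1. Its 5 other values overlapped between the groups. The fitted log2 fold change of 1.44 ± 1.14 (SE) rests on that value and on the added 0.1 CPM. It was 0.51 with 1 CPM added and -0.072 without DMSO replicate 1. Among all rows, 49 genes were listed at 0 in a single library and at 1 CPM or more in the other 5, and for 13 of them that library was DMSO replicate 1.

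The pacemaker channel genes had estimates of opposite sign. HCN2 was at 9.43, 12.5 and 14.8 CPM in the blebbistatin libraries and 11.2, 11.5 and 7.95 CPM in the DMSO libraries, with a log2 fold change of 0.22 ± 0.25 (SE). HCN4, the main pacemaker channel of the sinus node, was at 19.3, 19.1 and 25.4 CPM in the blebbistatin libraries and 29.3, 21.8 and 17.6 CPM in the DMSO libraries (-0.13 ± 0.24, and 0.11 without DMSO replicate 1). Both had overlapping groups. The 8 conduction and pacemaker markers summed to 76.9 to 93.1 CPM in blebbistatin libraries and 79.0 to 87.6 CPM in DMSO libraries. Of the 8, 7 were above 0 in all 6 libraries, among them TBX18 at 24.9 to 34.6 CPM, TBX3 at 3.19 to 4.99 CPM and SHOX2 at 0.397 to 1.28 CPM, while ISL1 was at 0 to 0.281 CPM. Their part in the HCN2 and HCN4 values was not tested. Without DMSO replicate 3 the log2 fold change of HCN2 was 0.021.

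ATP1B1, the β subunit of the sodium pump, had the fold change nearest to 0. It was at 601, 605 and 583 CPM in the blebbistatin libraries and 522, 604 and 602 CPM in the DMSO libraries, and its log2 fold change of 0.013 ± 0.12 (SE) had a 95% interval of 0.84-fold to 1.22-fold. It overlaps NME7 in the RefSeq annotation, a gene at 6.72 to 8.10 CPM over the 6 libraries. GJA5, the gene of connexin 40 that couples atrial and conduction cells, was at 39.8, 44.9 and 42.6 CPM in the blebbistatin libraries and 50.3, 45.0 and 42.9 CPM in the DMSO libraries. Blebbistatin replicate 2 alone reached into its control range, and the log2 fold change was -0.16 ± 0.14 (SE) and -0.049 without DMSO replicate 1.

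For RYR2, ATP2A2, JPH2, ITPR2, CACNA1C and ORAI1, DMSO replicate 1 was highest, and blebbistatin replicate 1 and DMSO replicate 3 were the 2 lowest libraries. The reverse order held for SLN, CASQ2 and KCNIP2. These are 6 and 3 of 27 genes, against 12.4% and 17.9% of all genes tested, and the other 18 followed neither order. The orders were chosen after the values were seen, are common over all genes, and are a description. In DMSO replicate 1 the scaled log2 level of RYR2 lay 1.00 above the mean of the other 5 libraries, ITPR2 0.95, CACNA2D1 0.79, JPH2 0.65 and HCN4 0.65. On the other side were SLN at -1.25, KCNJ11 at -0.49, PLN at -0.48 and KCND3 at -0.42, and KCNIP2, listed at 0, at -4.49. The SD of the log2 level was larger in DMSO libraries than in blebbistatin libraries for 21 of the 27 genes, and for 70.2% of all genes tested. The median SD over the 27 genes was 0.18 in blebbistatin libraries and 0.24 in DMSO libraries on the log2 scale. Over all genes tested these medians were larger, at 0.19 and 0.30.

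Ratios within a library do not depend on how libraries are scaled, and 5 pairs with a shared function were compared. The log2 ratio of PLN to ATP2A2, the inhibitor against its pump, was -0.891, -0.996 and -0.979 in the blebbistatin libraries, against -1.868, -1.138 and -1.001 in the DMSO libraries. The treated values were all higher, by 0.38 on average, and the lowest treated value lay just above the highest control value. The exact two-sided permutation p was 0.1, the smallest that 3 against 3 libraries allow, and 0.25 adjusted over the 5 ratios. Without DMSO replicate 1 the difference was 0.11.

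The log2 ratio of SLC8A1 to ATP2A2, the removal of calcium from the cell against its return to the store, averaged -2.76 ± 0.056 in blebbistatin libraries and -2.69 ± 0.066 in DMSO libraries (SD, n = 3 each; exact permutation p = 0.2). That of HCN4 to HCN2 averaged 0.80 ± 0.21 in blebbistatin libraries and 1.15 ± 0.23 in DMSO libraries (exact permutation p = 0.2, n = 3 each). That of CACNA2D1 to CACNA1C averaged -0.023 ± 0.21 in blebbistatin libraries and 0.14 ± 0.12 in DMSO libraries (exact permutation p = 0.2, n = 3 each). Each of these 3 had an adjusted p of 0.25 and overlapping groups. The log2 ratio of SLN to ATP2A2 differed by 0.53 (exact permutation p = 0.5) and by -0.016 without DMSO replicate 1.

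**Figure D3:**
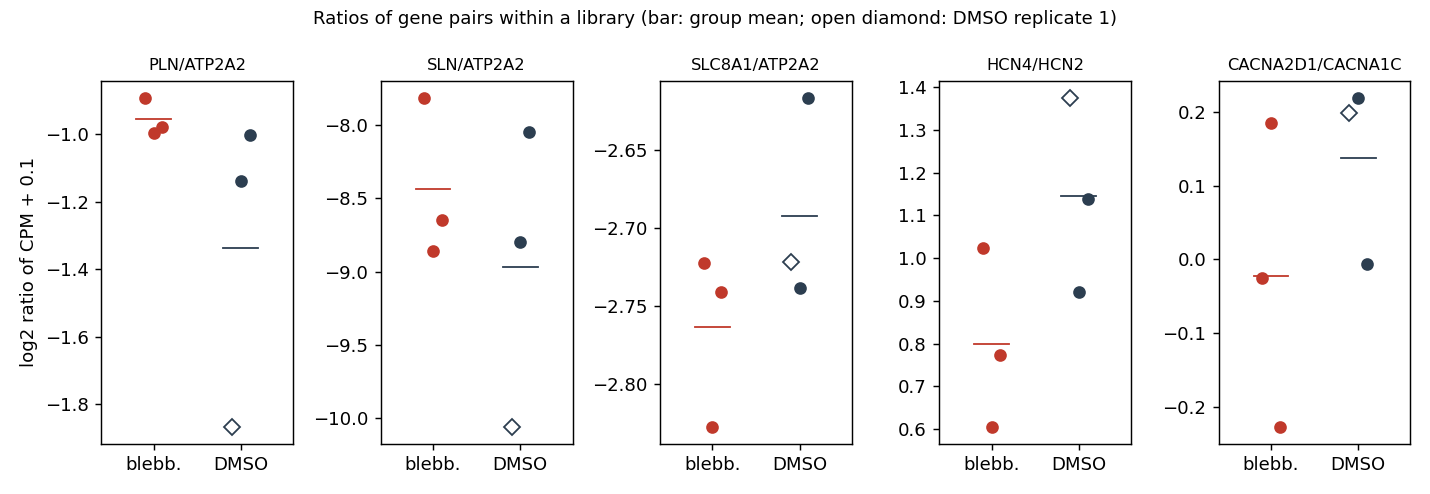
Log2 ratio of CPM plus 0.1 of 5 gene pairs within each library, with blebbistatin on the left and DMSO on the right of each panel and bars at the group means. Axes differ between panels and do not start at 0, and open diamonds mark DMSO replicate 1. In the PLN to ATP2A2 panel the treated libraries lie between -0.996 and -0.891 and the control libraries between -1.868 and -1.001.

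A wider list of other calcium and channel genes was measured beside them. Of 124 listed genes 108 were tested, and limma called 0 higher and 0 lower. At an unadjusted p under 0.05 there were 0 higher and 2 lower, where 0.730% and 0.776% of all genes tested lay. The median log2 fold change of the 108 was -0.011, with 51 positive and 57 negative. The groups did not overlap for 4 genes on the higher and 5 on the lower side, where 3.17% and 2.94% of all genes tested lay. By list, 13 fold changes were positive and 12 negative among 25 other store genes, 13 and 16 among 29 entry, exchange and mitochondrial calcium genes, 13 and 15 among 28 other potassium channel genes, and 12 and 14 among 26 sodium, chloride, pump and junction genes.

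The voltage-gated sodium channels belong to this list. SCN2B, an auxiliary β subunit, had the lowest p of it and was at 0.857, 0.474 and 0.746 CPM in the blebbistatin libraries, against 1.24, 1.39 and 1.31 CPM in the DMSO libraries. All treated libraries were below all controls, and the log2 fold change was -0.90 ± 0.31 (SE, limma adjusted p = 0.991). SCN1A, a pore-forming subunit, was at 5.90, 5.61 and 3.94 CPM in the blebbistatin libraries and 8.45, 6.02 and 6.16 CPM in the DMSO libraries (-0.45 ± 0.25), without overlap.

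Among the other store genes, ATP2A3, a SERCA form of non-muscle cells, was at 1.00, 0.775 and 0.259 CPM in the blebbistatin libraries and 2.03, 1.07 and 1.46 CPM in the DMSO libraries (log2 fold change -1.20 ± 0.49, SE). TMEM38B, the gene of a potassium-permeable channel of the store membrane, was at 17.9, 18.8 and 16.4 CPM in the blebbistatin libraries and 12.5, 14.0 and 16.0 CPM in the DMSO libraries (0.29 ± 0.14). Neither group pair overlapped, and neither gene passed (limma adjusted p = 0.991 for both).

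On the entry side, TRPC6, a cation channel opened by diacylglycerol, was at 29.3, 33.1 and 30.5 CPM in the blebbistatin libraries and 44.7, 37.8 and 34.4 CPM in the DMSO libraries (log2 fold change -0.36 ± 0.16, SE). All treated libraries of TRPC6 were below all controls. Of the other potassium channel genes, KCNE1, the auxiliary subunit of KCNQ1, had a log2 fold change of -0.75 ± 0.44 (SE) below 0.5 CPM in all 6 libraries. The limma adjusted p was 0.991 for both TRPC6 and KCNE1.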

How the data were processed

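The RNA table was deposited as CPM values made by the authors: each column sums to the same total. Per the submitters' processing notes, the RNA and chromatin samples together involved build rn6, edgeR 3.20.9, HISAT2 2.1.0 and StringTie 1.3.4, besides BWA, MACS2 2.1.0 and Trim Galore, with no role given. Annotation and strand setting are not given in the sources used here. Low values come in steps of 0.0158 to 0.0168 CPM (97.7 to 98% of them whole, tolerance 0.02). The commonest low value is 4 steps, so a step need not be 1 read, the depth is unknown, and no counting interval is given.

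CPM was divided by an unweighted TMM factor (trims 0.3 and 0.05; 0.928 to 1.03), and log2(CPM + 0.1) was fitted with limma 3.58.1 in R 4.3.3 (trend and robust eBayes, no block, two-sided). Fold changes are on this log2(CPM + 0.1) scale, which understates changes of low genes. Genes needed at least 0.162 CPM, 10 steps, in 3 libraries; p-values were adjusted over all 15204. Means ± SD are of scaled CPM, single-library values as deposited. Fits were tested on simulated data. The planted changes were larger than any estimate for the 27 genes, and no simulated control stood apart. That test therefore cannot tell whether changes of the size seen here would be found. Gene names are the table's. Per-library values are given for genes with separated groups, for the 3 lowest p and the highest mean CPM in each role and, beyond that rule, for further genes chosen after their values were seen; from each wider list the 2 lowest p are named, except for genes not reported here. The single marker genes, CEP85L, NME7, DCP1B, ABCC8 and ABCC9 were also chosen after their values were seen. The genes and lists were chosen with earlier results of these data known. Rows whose gene overlaps another, 12 of the 27 genes in RefSeq (GRCr8), are uncertain. The planned ratio of KCND2 to KCND3 and the setting beside protein length were not run. Replicate numbers were not taken to pair libraries. A left-out library kept the same 15204 genes.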

Additional observations from a re-analysis of the deposited data

How the results depend on the processing

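Under each scaling, filter, added constant, left-out library and the replicate block, limma called 0 of the 27 genes. Genes called over the whole table numbered 3, and 2 without a filter, with 0.5 or 1 CPM added and with the replicate block. With single libraries left out there were 3 to 6 called genes, 3 to 6 of the 27 with separated groups instead of 2, and a median log2 fold change over the 27 of -0.13 to 0.054. Fewer libraries separate more easily by construction: over all genes 12 to 22.5% then did not overlap.

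Same-numbered libraries correlated at -0.29, 0.054 and -0.092 in their deviations from group means, so the numbers were not taken as pairs. With the replicate block the lowest adjusted p of the 27 was 0.999 and their median stayed -0.04.

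Of the 27 genes' log2 fold changes, 331 values under the alternatives kept their sign and 20 reversed. With library size only, CAMK2D was 0.000557. Over the left-out libraries, the ranges that cross 0 were -0.0119 to 0.0304 for ATP1B1, -0.225 to 0.0192 for ATP2A2, -0.31 to 0.036 for CACNA1C, -0.0377 to 0.181 for CACNB2, -0.0428 to 0.21 for CAMK2A, -0.126 to 0.046 for CAMK2D, -0.328 to 0.107 for HCN4, -0.581 to 0.00506 for ITPR2, -0.298 to 0.139 for JPH2, -0.0719 to 2.27 for KCNIP2, -0.0119 to 0.263 for KCNJ2, -0.29 to 0.151 for ORAI1 and -0.207 to 0.00405 for TRDN. The sign held for the other 14, with ranges of -0.542 to -0.0935 for CACNA2D1, 0.0433 to 0.144 for CASQ2, -0.233 to -0.0489 for GJA5, 0.0213 to 0.402 for HCN2, -0.436 to -0.0719 for HRC, 0.017 to 0.34 for KCND3, 0.0124 to 0.169 for KCNH2, 0.209 to 0.407 for KCNJ11, 0.0432 to 0.26 for KCNQ1, 0.134 to 0.345 for PLN, -0.623 to -0.049 for RYR2, -0.258 to -0.0673 for SLC8A1, 0.00281 to 0.768 for SLN and -0.323 to -0.0456 for STIM1. The log2 ratio of SLN to ATP2A2 ran from -0.0162 to 0.991. The cause of these reversals was not tested. Read depth is unknown, and 3 libraries a group limit the precision.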
